A study of Mus musculus with 6 samples.

Results

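The genes of the cytoplasmic ribosome were examined in maxillary prominences of mouse embryos at embryonic day 12.5, the paired facial swellings that form the upper jaw and the palatal shelves. Members were the protein-coding genes whose GENCODE symbol is Rpl or Rps followed by a number, together with Rplp0, Rplp1, Rplp2 and Rpsa, and they were 83 of the 53801 genes counted. The large subunit has 51 of them and the small subunit 32. Of the 83, 77 are ubiquitous genes and 6 are paralogs that carry an l after the number (Rpl3l, Rpl7l1, Rpl10l, Rpl22l1, Rpl39l and Rps27l). Another 6 genes with matching symbols were not protein-coding and were dropped. The members lie on 19 chromosomes, so they form no cluster in the genome.

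RNA-seq was performed on 3 WT samples and 3 samples of the genotype wnt1cre; Rosa26Dlx2/- (Dlx2OE), all labelled as the C57BL/6 strain, with a C57BL/6J background named in the protocol. In Dlx2OE embryos a Flag-tagged Dlx2 transgene behind the CAG promoter and a loxP-flanked stop sits in the Rosa26 locus, and Wnt1-Cre removes the stop in the neural crest lineage. Epithelium, endothelium, blood and muscle of the prominence do not descend from the neural crest, so whole-tissue RNA mixes cells with and without the active transgene. The study's methods name 6 littermates and the sample labels 7, so some samples may pool embryos, and whether the WT embryos carried Cre was not given in the sources used here.

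A ribosome joins a small subunit, which reads the mRNA, and a large subunit, which links the amino acids. The subunits need their proteins in equal numbers, and the mRNAs for these proteins are among the most abundant in growing cells. They begin with a tract of pyrimidines, through which mTOR signaling and the RNA-binding protein Larp1 set their translation. Loss of a single copy of genes such as RPS19, RPL5 or RPL11 causes Diamond-Blackfan anaemia in humans, which can include cleft palate and other facial anomalies, and neural crest cells are known to be sensitive to impaired ribosome production.

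The number of read pairs on genes ranged over the samples from 26155500 to 31308813. Levels are given as CPM, counts scaled to the library size by the TMM method. Dlx2 averaged 41.0 ± 5.32 CPM over the WT samples and 124 ± 5.96 CPM over the Dlx2OE samples (SD, n = 3 each). The fitted log2 fold change was 1.60 ± 0.118 (SE, edgeR adjusted p = 0.00241). All 15 markers fixed for maxillary mesenchyme were measured, whereas the 4 Hox genes fixed as negative for this tissue summed to 0.669 to 2.40 CPM. A pair of libraries stood apart in the measures used below. WT sample 3 had fewer counts on ribosomal protein genes than the other WT samples, and 14.7% of the fragments of Dlx2OE sample 3 fell in no annotated gene, against 5.03 to 5.43% in WT and 5.75 and 7.81% in the other Dlx2OE samples.

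Ribosomal protein genes took a smaller share of the counts in Dlx2OE than in WT. In the order of the sample numbers, the 83 genes held 8.95, 9.76 and 6.26% of all counts on genes in the WT samples against 5.83, 5.46 and 4.59% in the Dlx2OE samples. The 95% Wilson interval of each share extended at most 0.0104 percentage points to either side, which covers counting error only. The mean share was 8.32 ± 1.83% in WT and 5.29 ± 0.637% in Dlx2OE (SD, n = 3 each). The groups did not overlap, but WT sample 3 lay closer to Dlx2OE sample 1 than to either other WT sample. In bulk tissue, fewer cells of a type and less RNA per cell cannot be told apart. The balance between the subunits moved little, with 1.28 ± 0.0248 counts on large subunit genes per count on small subunit genes in WT and 1.31 ± 0.0105 in Dlx2OE (SD, n = 3 each).

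The difference ran through almost the whole ribosome. Of the 83 genes, 81 had enough counts for a test, and the exceptions were the paralogs Rpl3l and Rpl10l. Of the 81, 26 were downregulated in Dlx2OE (edgeR adjusted p under 0.05, over 17514 genes) and 0 were upregulated. Across all genes tested, 3.46% were called lower and 2.99% higher under the same rule. An unadjusted p under 0.05 was found for 74 of the 81, and for 5172 of all 17514 genes tested. DESeq2 also called 0 of the members higher. The fitted log2 fold change was below 0 for 79 of the 81, with a median of -0.78, whereas the median over all genes tested was 0.0028. With the study's further threshold of a log2 fold change below -1, 15 of the 81 were downregulated, against 1.62% of all genes.

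**Figure D1:**
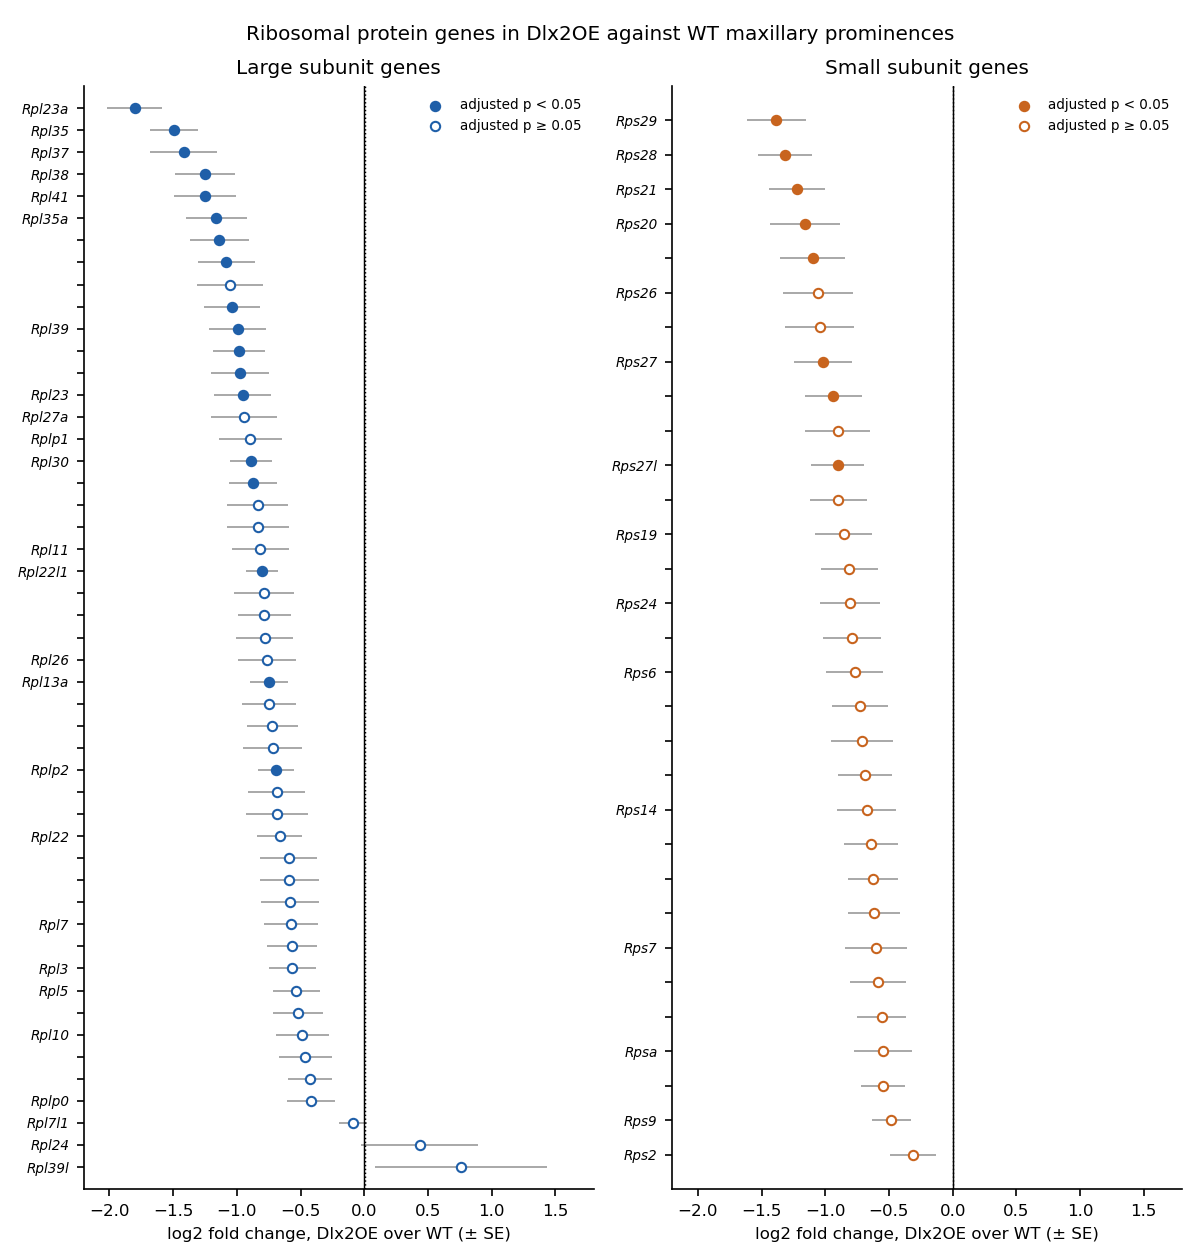
Fitted log2 fold change (Dlx2OE over WT, with its SE) of 80 of the 81 ribosomal protein genes tested, large subunit on the left and small subunit on the right, ordered by size, with symbols for most members described in the text. Filled points passed an adjusted p under 0.05 and open points did not. The solid vertical line is 0 and the dotted line, close to it, is the median of all genes tested, and only Rpl24 and Rpl39l lie to the right of both.

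How many genes passed the test depended on single libraries, while the direction did not. Without WT sample 3, 73 of the 81 were called lower, against 7.14% of all genes. Without Dlx2OE sample 1 the count was 30, against 5.33%. In the remaining 4 fits that left out 1 sample, fewer genes of any kind were called. Without WT sample 1 the count was 2 (0.567% of all genes), without WT sample 2 it was 1 (0.222%), without Dlx2OE sample 2 it was 2 (0.4%), and without Dlx2OE sample 3 it was 3 (0.793%). Rpl35 was among the genes called in each of these small sets, Rpl23a in all but the fit without WT sample 2, and Rpl22l1 was called without Dlx2OE sample 3. Leaving out WT sample 3 and Dlx2OE sample 3 together gave 62, against 2.84% of all genes. With no filter on low counts the count was 51 (3.51% of all genes), and with a replicate block it was 43 (3.16%). DESeq2 called 72 members lower, where it called 7.21% of the genes that received an adjusted p. In each of these fits the log2 fold change of 79 of the tested members was below 0, except that without Dlx2OE sample 1 it was 80.

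**Figure D2:**
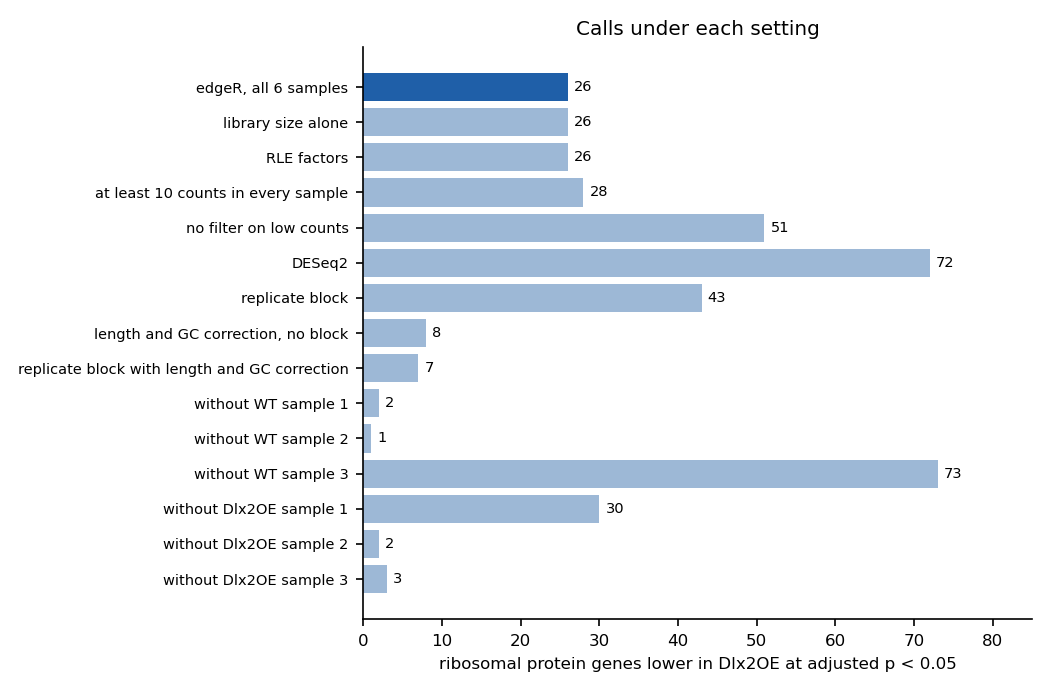
Number of ribosomal protein genes called lower in Dlx2OE at an adjusted p under 0.05 in the edgeR fit of all 6 samples (dark bar) and when 1 choice was changed (light bars). The count runs from 1 without WT sample 2 to 73 without WT sample 3.

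The order of the samples was nearly the same from gene to gene. Set against the mean log2 CPM of each gene in WT, the median of the 77 ubiquitous genes was 0.20, 0.27 and -0.50 in the WT samples (in the order 1 to 3). In the Dlx2OE samples it was -0.58, -0.69 and -0.94. WT sample 3 was the lowest WT sample for 76 of the 77 genes, and Dlx2OE sample 3 was the lowest of the 6 for 74. All Dlx2OE samples lay below all WT samples for 58 of the 77, and for 60 of the 81 tested, against 17.3% of all genes. The same separation held for 123 of 225 other coding genes with a spliced length under 600 bases. It held for 42 of 77 mitochondrial ribosomal protein genes, which summed to 4107, 4066 and 3029 CPM in the WT samples. In the Dlx2OE samples they summed to 2948, 2837 and 2499 CPM. The SD of the log2 fold changes was 0.32 over the 77 ubiquitous genes and 0.69 over all genes tested. Over the mitochondrial ribosomal protein genes it was narrower still, at 0.24.

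**Figure D3:**
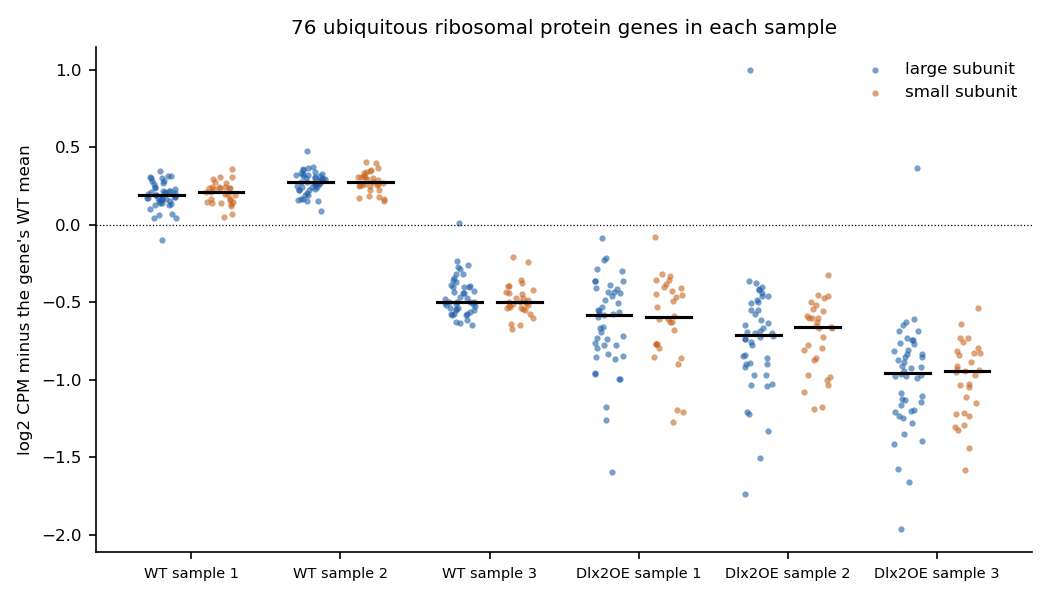
Each point is 1 of 76 ubiquitous ribosomal protein genes in 1 sample, as log2 CPM minus the mean log2 CPM of that gene in WT, for the large and the small subunit. Black bars are medians. WT sample 3 lies below WT samples 1 and 2, close to Dlx2OE sample 1, and the points high above the rest in Dlx2OE samples 2 and 3 are Rpl24, which had 6 to 18 counts a sample.

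Several measures of the libraries moved with the genotype, while the sums of other marker lists overlapped between the genotypes. Transcripts encoded by mitochondrial DNA took 3.68 to 5.10% of the counts in WT and 3.05 to 3.40% in Dlx2OE, and haemoglobin genes 0.333 to 0.403% and 0.201 to 0.258%. Of the 12 erythroid markers, 3 were downregulated (Hba-a1, Hba-a2 and Alas2), and their summed level was 3329 to 4445 CPM in WT and 2008 to 2600 CPM in Dlx2OE, with none of the 12 under 1 CPM in all samples. Of the 8 macrophage markers, 3 were downregulated (C1qa, C1qb and C1qc), with sums of 76.7 to 87.7 CPM and 44.2 to 57.5 CPM. Of the 15 mesenchyme markers, 4 were upregulated (Alx4, Tfap2a, Tfap2b and Twist1) and 1 downregulated (Foxf2), with sums of 2005 to 2332 CPM in WT and 2544 to 2992 CPM in Dlx2OE. Of the surface epithelium markers 2 of 10 were downregulated (Krt8 and Krt18), and 6 of the 10 had a log2 fold change below 0. The 10 markers summed to 776, 1389 and 1036 CPM in the WT samples (in the order 1 to 3). In the Dlx2OE samples they summed to 1939, 608 and 626 CPM, so the groups overlapped. Krt5 had a log2 fold change of 1.91 ± 0.572 (SE, edgeR adjusted p = 0.0792). Its level was 42.7, 91.7 and 79.5 CPM in the WT samples against 538, 121 and 147 CPM in the Dlx2OE samples. Of the endothelial markers 1 of 8 was downregulated (Emcn), with sums of 307 to 458 CPM and 217 to 343 CPM. Of the neuronal markers 0 of 10 were called by edgeR, and 4 had an unadjusted p under 0.05, as did 5172 of all 17514 genes tested. The 10 neuronal markers summed to 110, 389 and 230 CPM in the WT samples. In the Dlx2OE samples they summed to 216, 759 and 1706 CPM, so the groups overlapped. None of the glial, muscle, retina and lens markers was called either, of which 0, 2 and 1 had an unadjusted p under 0.05. The part of these shifts in the ribosomal protein result was not tested. When mitochondrially encoded and haemoglobin genes were removed before scaling, 26 members were called lower with a median of -0.78, against 3.43% of all genes.

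In the large subunit, 18 of the 49 genes tested were downregulated, and 17 of the 46 ubiquitous ones. The median log2 fold change of the 46 was -0.78. Rpl23a, a protein beside the exit of the nascent peptide tunnel, had the lowest value. It measured 157, 139 and 86.8 CPM in the WT samples (given here and below in the order 1 to 3) against 41.0, 37.1 and 31.7 CPM in the Dlx2OE samples, so all Dlx2OE samples lay far below all WT samples. Its log2 fold change was -1.80 ± 0.218 (SE, edgeR adjusted p = 0.00929). Rpl35, which sits at the same tunnel exit, had 111, 122 and 76.6 CPM in the WT samples against 42.2, 35.6 and 32.0 CPM in the Dlx2OE samples. The fitted log2 fold change was -1.49 ± 0.186 (SE, edgeR adjusted p = 0.0101), and it was the only member that kept an adjusted p under 0.05 whichever sample was left out, with 0.0492 as the highest. Both genes share much of their exon sequence with other annotated genes. In GENCODE M21, 62.3% of the exon bases of Rpl23a (chr11:78180932-78183584, GRCm38, reverse strand) overlap exons of Tlcd1 or a small nucleolar RNA, and 66.2% of those of Rpl35 (chr2:39001580-39005624, reverse strand) overlap exons of Arpc5l and Wdr38. Union counting leaves out reads that overlap exons of more than 1 gene on the strands it considers.

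Genes with no exon overlap also passed, 15 of 43 tested, with a median log2 fold change of -0.83. Rpl37 had 884, 901 and 456 CPM in the WT samples against 316, 283 and 240 CPM in the Dlx2OE samples, with a log2 fold change of -1.42 ± 0.260 (SE, edgeR adjusted p = 0.0259). Rpl41, which encodes the smallest protein of the ribosome, had 1116, 1247 and 658 CPM in the WT samples against 487, 417 and 369 CPM in the Dlx2OE samples (log2 fold change -1.25 ± 0.242, edgeR adjusted p = 0.0298). Rpl38, whose mutation in Tail-short mice alters the axial skeleton and whose product is known to favor translation of Hox mRNAs, had 370, 408 and 214 CPM in the WT samples against 160, 138 and 120 CPM in the Dlx2OE samples (log2 fold change -1.25 ± 0.236, edgeR adjusted p = 0.0280). In each of these genes the groups did not overlap, and WT sample 3 stood between the other WT samples and the Dlx2OE samples. Rpl35a, a Diamond-Blackfan gene, had a log2 fold change of -1.16 ± 0.240 (SE, edgeR adjusted p = 0.0348), and Rpl30, with 24.8% of its exon bases shared, one of -0.89 ± 0.166 (SE, edgeR adjusted p = 0.0271).

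In the small subunit, 8 of the 32 genes tested were downregulated, and 7 of the 31 ubiquitous ones. The median log2 fold change of the 31 was -0.77, against -0.78 in the large subunit. Rps29, a short zinc finger protein in the head of the small subunit, had 600, 584 and 334 CPM in the WT samples against 203, 215 and 164 CPM in the Dlx2OE samples (log2 fold change -1.38 ± 0.231, edgeR adjusted p = 0.0203). Rps28 had 474, 466 and 272 CPM in the WT samples against 169, 173 and 144 CPM in the Dlx2OE samples (log2 fold change -1.32 ± 0.214, edgeR adjusted p = 0.0188). Rps21 had 568, 501 and 305 CPM in the WT samples against 193, 216 and 179 CPM in the Dlx2OE samples (log2 fold change -1.22 ± 0.221, edgeR adjusted p = 0.0251). All of these genes encode short proteins, and in all of them every Dlx2OE sample was below every WT sample. Rps20, in which mutation darkens the skin of mice, also passed the test with a log2 fold change of -1.16 ± 0.275 (SE, edgeR adjusted p = 0.0473).

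Some genes had values closer to 0 than the median. Rps2, a protein at the mRNA entry of the small subunit, had 1624, 1739 and 1309 CPM in the WT samples against 1466, 1234 and 1067 CPM in the Dlx2OE samples, so the groups overlapped. Its log2 fold change was -0.31 ± 0.180 (SE, edgeR adjusted p = 0.282). Rps9 had a log2 fold change of -0.48 ± 0.154 (SE, edgeR adjusted p = 0.0918). Rpl24, the gene mutated in Belly spot and tail mice, received 9, 12 and 6 counts in the WT samples against 8, 18 and 10 in the Dlx2OE samples, far fewer than its neighbors in the ribosome, and 47.0% of its exon bases lie in exons of the annotated gene Gm28037. Its log2 fold change of 0.44 ± 0.460 (SE, edgeR adjusted p = 0.550) rests on these few counts.

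Genes linked to ribosomopathies and to p53 signaling had values on either side of the members' median of -0.78. Rps19, the gene most often mutated in Diamond-Blackfan anaemia, had 832, 853 and 494 CPM in the WT samples against 456, 403 and 346 CPM in the Dlx2OE samples (log2 fold change -0.86 ± 0.222, edgeR adjusted p = 0.0580). Rpl11 and Rpl5, which with 5S rRNA bind Mdm2 and restrain it, had log2 fold changes of -0.82 ± 0.223 and -0.53 ± 0.186 (SE, edgeR adjusted p = 0.0639 and 0.110). Neither passed the test, and for all of these genes the Dlx2OE samples lay below the WT samples. Rpl23, another Mdm2 binder, was downregulated with a log2 fold change of -0.96 ± 0.223 (SE, edgeR adjusted p = 0.0455). Rpl26, which binds Trp53 mRNA, had -0.76 ± 0.229 (SE, edgeR adjusted p = 0.0798). Rps24, Rps26, Rps7 and Rps14 had values of -0.80, -1.06, -0.60 and -0.67, and none of these passed. Rps6, the substrate of S6 kinase, had a log2 fold change of -0.77 ± 0.223 (SE, edgeR adjusted p = 0.0749), Rpl27a, mutated in Sooty foot ataxia mice, one of -0.94 ± 0.259 (SE, edgeR adjusted p = 0.0652). Rpl13a, known for silencing inflammatory mRNAs, was called lower at -0.75 ± 0.147 (SE, edgeR adjusted p = 0.0306), from 374 to 777 counts a sample.

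The stalk of the large subunit, which recruits elongation factors, is built from the proteins of Rplp0, Rplp1 and Rplp2. Rplp2 had 403, 459 and 435 CPM in the WT samples against 319, 238 and 247 CPM in the Dlx2OE samples, and it was downregulated with a log2 fold change of -0.69 ± 0.141 (SE, edgeR adjusted p = 0.0336). It was the only ubiquitous gene in which WT sample 3 was not the lowest WT sample. Rplp1 had 1428, 1682 and 911 CPM in the WT samples against 868, 698 and 596 CPM in the Dlx2OE samples (log2 fold change -0.89 ± 0.247, edgeR adjusted p = 0.0660). Rplp0, which anchors the stalk, had the smaller value of -0.42 ± 0.190 (SE, edgeR adjusted p = 0.183), with overlapping groups. Rpsa, the small subunit protein also known as the laminin receptor, had 2809, 3110 and 1870 CPM in the WT samples against 1983, 1845 and 1504 CPM in the Dlx2OE samples (log2 fold change -0.55 ± 0.224, edgeR adjusted p = 0.151).

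The paralogs did not follow a single pattern. Rpl22l1, which can take the place of Rpl22, had 41.9, 41.9 and 35.6 CPM in the WT samples against 24.8, 23.6 and 19.9 CPM in the Dlx2OE samples. It was downregulated with a log2 fold change of -0.80 ± 0.127 (SE, edgeR adjusted p = 0.0178), beside -0.66 ± 0.177 for Rpl22 (SE, edgeR adjusted p = 0.0609). Rps27l, a target of p53, was also downregulated, with a log2 fold change of -0.90 ± 0.209 (SE, edgeR adjusted p = 0.0450), and its parent Rps27 had -1.02 ± 0.231 (SE, edgeR adjusted p = 0.0427). Rpl7l1, a relative of Rpl7 known from early stages of large subunit assembly, had 184, 174 and 173 CPM in the WT samples against 185, 169 and 146 CPM in the Dlx2OE samples, so the groups overlapped. Its log2 fold change was -0.09 ± 0.112 (SE, edgeR adjusted p = 0.623), and Rpl7 had -0.58 ± 0.215 (SE, edgeR adjusted p = 0.128). Rpl39l, mostly known from testis, had 8 to 59 counts a sample and a log2 fold change of 0.76 ± 0.673 (SE, edgeR adjusted p = 0.474), while its X-linked parent Rpl39 was downregulated at -0.99 ± 0.222 (SE, edgeR adjusted p = 0.0419). Rpl3l, the striated muscle form of Rpl3, had 0 to 3 counts a sample, at or under the floor of 3 counts (0.0955 to 0.111 CPM). Rpl10l, the testis form of X-linked Rpl10, had 0 counts in every sample.

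No ratio of a paralog to its parent passed a test. Counts on Rpl7l1 per 1000 counts on Rpl7 were 74.5, 67.7 and 104 in the WT samples against 108, 110 and 117 in the Dlx2OE samples. Counts on Rpl22l1 per 1000 on Rpl22 were 60.1, 58.6 and 72.4 in the WT samples against 55.4, 57.9 and 57.6 in the Dlx2OE samples. The groups did not overlap in either ratio, which gives an exact two-sided permutation p of 0.1, the smallest that 3 against 3 allows (0.2 after Benjamini-Hochberg adjustment over the 4 ratios). In both ratios WT sample 3 held the highest WT value. Rps27l to Rps27 was 230 ± 15.4 per 1000 in WT and 246 ± 28.9 in Dlx2OE (SD, n = 3 each, exact permutation p = 0.4), and Rpl39l to Rpl39 overlapped as well (exact permutation p = 0.2).

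Levels differed widely between members within WT. Per kilobase of transcript, the highest WT level was that of Rps24 at 3008 ± 872 CPM per kb, followed by Rps12 at 2766 ± 946 and Rplp1 at 2686 ± 788 CPM per kb (SD, n = 3 each). The SDs of these neighbors overlap, but all come from the same libraries, and their order was not tested. These levels use the transcripts paired with RefSeq. By the spliced length of 1613 bases that sets its length class below, Rps24 had 979 ± 284 CPM per kb, so its place depends on the transcript chosen. The lowest ubiquitous genes were Rpl24 at 0.442 CPM per kb and Rpl13a at 22.1 CPM per kb, both of which share exon bases with other genes. Across the 77 ubiquitous genes, the log2 fold change had a Spearman correlation of 0.42 and a Pearson correlation of -0.099 with the WT level in CPM. These are descriptions across genes of the same 6 libraries, which are not independent replicates.

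The length of the mRNA went with the size of the difference. By spliced length, the 26 ubiquitous genes under 600 bases had a median log2 fold change of -0.92 and 14 were downregulated. The 29 genes of 600 to 900 bases had a median of -0.72 with 5 downregulated (Rpl19, Rpl28, Rpl31, Rpl37 and Rpl39). The 22 genes over 900 bases had a median of -0.63, also with 5 downregulated (Rpl13a, Rpl23, Rpl35, Rps20 and Rps23). Genes with short coding sequences stood out most. Among the 26 with the shortest coding sequence, up to 406 bases, 18 were downregulated with a median of -1.03, against 2 of the 25 with a coding sequence above 582 bases (Rpl13a and Rpl19), where the median was -0.62. Across the 77 genes, the log2 fold change and the log2 coding length had a Pearson correlation of 0.60 and a Spearman correlation of 0.74. Other measures of length correlated less. The values were 0.30 and 0.40 for spliced length, 0.31 and 0.44 for RefSeq transcript length, and 0.28 and 0.36 for total exon length. All are descriptions across genes that share their libraries. By subunit, the shortest coding sequences had a median of -1.02 in 16 large subunit genes, 12 of them downregulated, and of -1.04 in 10 small subunit genes, 6 of them downregulated. The longest had medians of -0.57 in 16 large subunit genes and -0.64 in 9 small subunit genes, of which 2 and 0 were downregulated. By spliced length, the medians of the short, middle and long classes were -0.89, -0.75 and -0.58 in the large subunit. In the small subunit they were -0.94, -0.66 and -0.72, so there the middle class did not lie between the others.

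**Figure D4:**
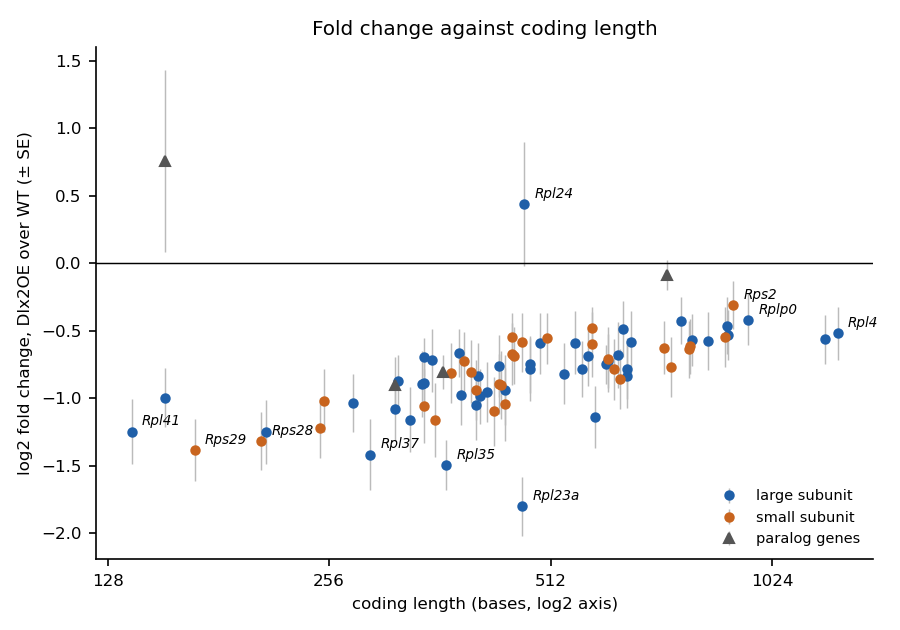
Fitted log2 fold change (Dlx2OE over WT, with its SE) of 80 ribosomal protein genes against their coding length on a log2 axis, for ubiquitous genes of the large and small subunit and for 4 paralogs. Genes with the shortest coding sequences, such as Rpl41, Rps29 and Rps28, lie lower than long ones such as Rpl4 and Rplp0, and Rpl23a and Rpl35 lie below genes of their length.

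The gap between short and long members was present in each Dlx2OE sample. Taken as log2 CPM against the WT mean of each gene, the median of the short class minus that of the long class was 0.031, 0.025 and -0.10 in the WT samples, and -0.31, -0.28 and -0.33 in the Dlx2OE samples. WT sample 3, although low in its overall level of ribosomal protein mRNA, was thus closer to the other WT samples than to any Dlx2OE sample in this measure.

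Short mRNAs outside the ribosome had lower values as well. Among 225 other coding genes under 600 bases, the median log2 fold change was -0.65 and 47 were called lower and 0 higher. Among 579 other coding genes of 600 to 900 bases the median was -0.46 with 76 called lower and 3 higher, and among 13866 longer ones it was 0.0072 with 368 lower and 442 higher. The members' median was the lower one in each class, although the class over 900 bases is not matched, since other genes in it can be much longer than the members. After a correction for spliced length and GC content by loess, the median of the ubiquitous members was -0.40, that of other coding genes under 600 bases was -0.20, and 8 members were called lower against 2.27% of all genes. With the replicate block added, 7 were called (0.622% of all genes), and with the correction fitted on other genes alone, 8 (2.29%). The 8 called by the first correction were Rpl23a, Rpl35, Rpl37, Rpl38, Rpl41, Rps21, Rps28 and Rps29. Among the members named here, the correction changed the sign of the values of Rpl7l1 and Rps2, neither of which passed a test in either fit. After the first correction, the log2 fold change of the 77 ubiquitous members still correlated with log2 coding length (Pearson 0.42, Spearman 0.54). With log2 RefSeq transcript length the correlation was weaker (Pearson 0.087, Spearman 0.25). What lies behind the relation to length was not tested.

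**Figure D5:**
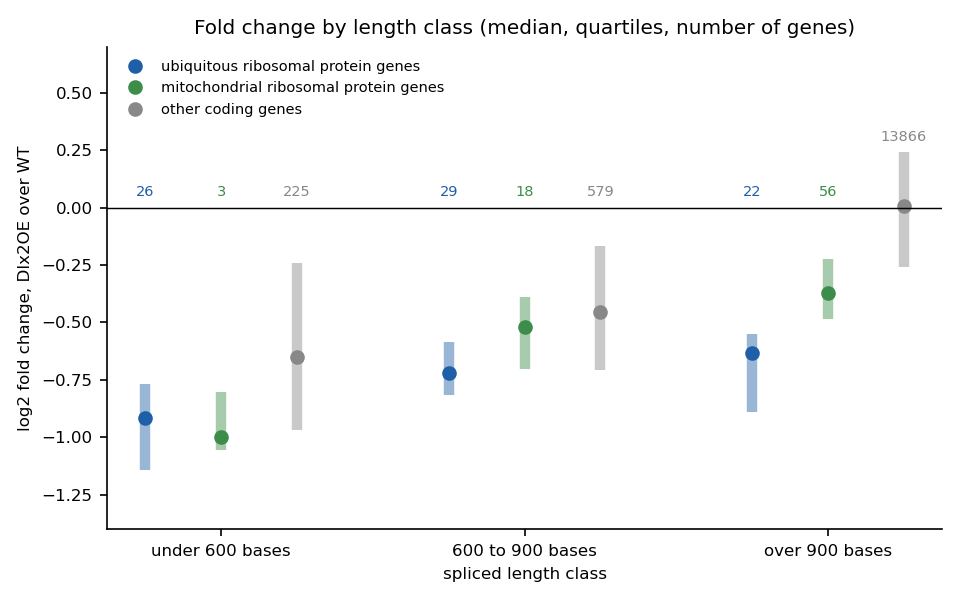
Median (points) and quartiles (bars) of the fitted log2 fold change, Dlx2OE over WT, by spliced length class for ubiquitous cytoplasmic ribosomal protein genes, mitochondrial ribosomal protein genes and all other coding genes, with the number of genes above each. Other coding genes under 600 bases have a median of -0.65, between that of the members at -0.92 and 0.

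Mitochondrial ribosomal proteins, which share no subunit with the cytoplasmic ribosome, had a median log2 fold change of -0.39 over 77 genes tested, and 6 were downregulated. The most significant were Mrpl52, Mrps21 and Mrps16, with log2 fold changes of -1.11, -1.0 and -0.84 (edgeR adjusted p = 0.0333, 0.0348 and 0.0356).

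Promoters were available for 63 of the 83 members, as RefSeq windows of 250 bases before to 50 after the start of each gene (GRCm38.p6). The string CTTTCC, a pyrimidine stretch typical of oligopyrimidine starts, stood on the gene strand within 40 bases before to 50 after the start in 19 of the 63, against 4.49% of 11390 other coding genes tested. On both strands of the whole window it was found in 33 of the 63 and in 30.1% of the others. A run of 8 or more C or T bases reaching within 10 bases of the start was found in 29 of the 63 and in 16.8% of the others. In all, 16 strings were counted, many of which overlap, and these are descriptions rather than sites. The ETS-type string CGGAAG stood on either strand in 42 of the 63 and in 31.8% of the others, and TATAAA in 7 of the 63 and 8.89%. Windows of 30 bases are shown as examples of members that hold CTTTCC, called lower or not, 5′ to 3′ on the gene strand with CTTTCC in capitals. The windows were placed on the string, whose first base lies between -32 (Rpl22) and 26 (Rpl26) relative to the start.
Rpl35: gtcggccccgccCTTTCCtctttctctcga
Rpl38: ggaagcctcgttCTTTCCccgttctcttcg
Rps27: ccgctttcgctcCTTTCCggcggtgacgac
Rpl26: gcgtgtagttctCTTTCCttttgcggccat
Rpl22: tctgactcctccCTTTCCcgacagccgact
Rpl39l: tagctcccaggcCTTTCCggatttccggtg
The windows are chr2:39005119-39005148 (reverse) for Rpl35, chr11:114668568-114668597 (forward) for Rpl38, chr3:90213630-90213659 (reverse) for Rps27, chr11:68901579-68901608 (forward) for Rpl26, chr4:152325682-152325711 (forward) for Rpl22 and chr16:10170210-10170239 (forward) for Rpl39l.

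The medians of members with and without the string lay close together, while the calls differed more. Among the members tested, the 19 with CTTTCC near the start had a median log2 fold change of -0.79 and 9 were downregulated. The 42 without it had a median of -0.75 and 11 were downregulated. Members with the longer pyrimidine run had a median of -0.80 over 29 genes, 12 of them downregulated. Those without it had a median of -0.68 over 32 genes, 8 of them downregulated. These differences were not tested.

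Values also varied among other mRNAs that start with an oligopyrimidine tract. Of 23 such genes outside the ribosome, 21 of them with a spliced length over 900 bases, 4 were downregulated (Gas5, Snhg1, Snhg8 and Tpt1) and 0 upregulated, with a median of -0.35. A difference between this list and the members was not tested. Gas5 and Snhg8, host genes of small nucleolar RNAs, had log2 fold changes of -1.05 ± 0.171 and -1.35 ± 0.179 (SE, edgeR adjusted p = 0.0187 and 0.0116), and Snhg1 one of -0.55 ± 0.115 (SE, edgeR adjusted p = 0.0352). The genes Eef1a1, Eef2 and Pabpc1, which also carry the tract, had log2 fold changes of -0.52, 0.0097 and -0.18 that did not pass. Of 3 subunit genes that the symbols do not catch (Fau, Rack1 and Rpl36al), 0 were called by edgeR. An unadjusted p under 0.05 was found for 1 of the 3, and for 5172 of all 17514 genes tested. Fau, which encodes a small subunit protein fused to a ubiquitin-like one, had a log2 fold change of -0.86 ± 0.236 (SE, edgeR adjusted p = 0.0656). The values of Rack1 and Rpl36al were -0.46 ± 0.198 and -0.28 ± 0.420 (SE, edgeR adjusted p = 0.170 and 0.675).

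Among 18 regulators of ribosomal protein mRNAs, 3 were upregulated and 0 downregulated, with a median of 0.14. Mycn, a transcription factor that drives ribosome production, averaged 37.6 ± 3.95 CPM over the WT samples and 59.8 ± 1.67 CPM over the Dlx2OE samples (SD, n = 3 each), and its fitted log2 fold change was 0.67 ± 0.105 (SE, edgeR adjusted p = 0.0174). Mtor, the kinase that switches on translation of these mRNAs, had a log2 fold change of 0.48 ± 0.102 (SE, edgeR adjusted p = 0.0379), and Tsc1, which restrains it, one of 0.42 ± 0.0980 (SE, edgeR adjusted p = 0.0456). Larp1 had 0.40 ± 0.129 (SE, edgeR adjusted p = 0.0926) and did not pass. Mtor and Tsc1 thus rose together although they have opposite roles in the same pathway. All 18 regulators have a spliced length over 900 bases, with 8564 for Mtor and 7702 for Tsc1. Across other coding genes the log2 fold change rose with spliced length (Spearman correlation 0.42), and the part of length here was not tested.

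Of 15 genes for ribosomal protein chaperones, importins and the p53 checkpoint, 0 were called by edgeR. An unadjusted p under 0.05 was found for 4 of the 15, and for 5172 of all 17514 genes tested. The closest were Ltv1, an assembly factor of the small subunit, with -0.52 ± 0.134 (SE, edgeR adjusted p = 0.0575), Ipo9, an importin, with 0.40 ± 0.115 (SE, edgeR adjusted p = 0.0702), and Mdm4, a p53 inhibitor, with 0.39 ± 0.122 (SE, edgeR adjusted p = 0.0883). The p53 targets Cdkn1a, Ccng1 and Bbc3 had log2 fold changes of 0.32 ± 0.453, -0.17 ± 0.106 and -0.32 ± 0.210 (SE), and none passed.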

How the data were processed

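Maxillary prominence RNA of 3 WT and 3 Dlx2OE samples was analysed. The authors selected poly(A) RNA, sequenced 150 bp read pairs, removed reads with a Phred quality under 20, mapped them to mm10 with STAR 2.7.3a, counted them with htseq-count 0.12.4 in union mode, and deposited raw counts per gene. The annotation release and the strand setting were not given in the sources used here. Groups and replicate numbers came from the sample labels. Symbols and lengths came from GENCODE M21, which holds 53706 of the 53801 genes. Spliced length is that of the coding transcript with the longest coding sequence, and levels per kilobase use the transcripts paired with RefSeq.

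Counts were tested with edgeR 4.0.16 (filterByExpr with a minimum count of 10, TMM factors, quasi-likelihood F test on genotype) in R 4.3.3, with Benjamini-Hochberg adjustment over 17514 genes. DESeq2 1.42.0 was the other tool. Between 26155500 and 31308813 counts fell on genes in each sample. The SE is the log2 fold change divided by the square root of F. Nothing in the labels says that samples came from separate litters, so p-values measure the spread between these samples. Members named were the paralogs and their parents, the stalk genes and Rpsa, genes with known roles in disease or mouse mutants, and in each subunit the 5 smallest p and the 3 fold changes farthest against the median, and of other lists the 3 smallest p. Rpl4, Rps12, Rps23, Rpl19, Rpl28, Rpl31, Tpt1, Tfap2b, Foxf2, Krt5, Eef1a1, Eef2, Pabpc1, Larp1, Cdkn1a, Ccng1 and Bbc3 were named after their values were seen. The values of 1 member and of 1 gene of the other lists are not reported here, and the member is counted but not drawn. The members and lists were chosen with earlier results of these data known. Alternatives were other scalings and filters, a replicate block, a loess correction for spliced length and GC content (span 0.5), added pseudogene counts, other lengths and each sample left out. The scripts were tested on simulated counts. Figures used matplotlib 3.10.9.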

Additional observations from a re-analysis of the deposited data

Results flagged for a closer look

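Reads outside the annotated genes set the genotypes apart. Fragments in no annotated feature made up 5.03, 5.43 and 5.25% of all fragments of the WT samples against 5.75, 7.81 and 14.7% of those of the Dlx2OE samples, so every Dlx2OE sample lay above every WT sample (95% Wilson intervals within 0.0117 percentage points). These fragments enter no comparison of the ribosomal protein genes. Dlx2OE sample 3 also had the lowest share of counts on ribosomal protein genes, 4.59%. Without it 3 members were called lower (0.793% of all genes), with a median log2 fold change of -0.69. Such low counts were not particular to this sample, since the fits without WT sample 1, WT sample 2 or Dlx2OE sample 2 called 2, 1 and 2. The part of the fragments in no annotated feature in the result was not tested.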

How the results depend on the processing

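The median log2 fold change of the ribosomal protein genes stayed below 0 in every setting tried, while the number of calls did not hold. In the fit of all samples 26 members were called lower, against 72 with DESeq2 (7.21% of all genes), 51 with no filter on low counts (3.51%), 43 with a replicate block (3.16%) and 15 with the study's fold threshold (1.62%). Paralogs and parents called went from 4 to 8 with DESeq2, the named members from 18 to 35, and genes of the other lists from 13 to 45, and to 37 with no filter and 20 with the replicate block. Whether the numbers 1 to 3 pair the samples is not known. Deviations of samples with the same number correlated at -0.072, -0.21 and 0.073 over all genes, and not every sample correlated best with its own number. Deviations from a mean of 3 samples depend on one another, so these values cannot settle the question. The block result therefore describes only a shared number.

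With the correction for length and GC content, 8 members were called, 0 paralogs and parents, 8 named members and 6 of the other lists. The medians became -0.40 for all members, -0.40 for both subunits, -0.44 for the short class and -0.30 for the middle class. With the replicate block added to it, the counts were 7, 0, 6 and 3 and the medians -0.39, -0.39 and -0.38, and -0.44 and -0.30 for the classes. Fitted on other genes alone, a choice made after seeing the data, the counts were 8, 0, 8 and 6 and the medians -0.41, -0.41 and -0.40, and -0.46 and -0.32. In the 3 forms of the correction, Rpl7l1 turned to 0.14, 0.14 and 0.14. Rps2 turned to 0.0092 in the first and 9.83e-05 with the block. The correction takes out part of any difference tied to length by construction.

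Leaving out each sample in turn gave 1 to 73 members called, 0 to 9 paralogs and parents, 1 to 36 named members and 0 to 61 genes of other lists, and medians from -0.99 to -0.65 over all members and over each subunit. Rpl39l ranged from -0.15 without Dlx2OE sample 1 to 1.42 without WT sample 2. Without WT sample 3 and Dlx2OE sample 3, also chosen after seeing the data, the counts were 62, 7, 28 and 27. Scaling by RLE factors, library size alone or TMM factors without the members, a minimum of 10 counts, added pseudogene counts, other definitions of length and leaving out members with over 20% of their exon bases shared (21 calls, median -0.77) changed no direction or call count by over 1.5 times. Leaving out every member with any exon overlap, also chosen after seeing the data, left 15 calls with fewer members. Library size alone moved the median of all genes to 0.070 and that of the members to -0.70.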
